A study of Danio rerio with 10 samples.

Results

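Globins are the oxygen-carrying proteins of the red blood cell, and their transcripts, together with those for heme synthesis and for the red cell membrane, mark the erythroid lineage. A hemoglobin tetramer is built from alpha and beta chains, each of which holds a heme group. Zebrafish, like mammals, replace embryonic globin chains with adult ones during development, and their alpha and beta globin genes share chromosomal clusters. The larger cluster holds adult genes (hbaa, hbba) followed by embryonic genes (hbae, hbbe), and the smaller cluster holds embryonic genes only. The genes described here are 6 embryonic globins (hbae1.1, hbae3, hbae5, hbbe1.1, hbbe2 and hbbe3), 2 adult-type globins (hbaa1 and hbba1), alas2, the erythroid enzyme for the rate-limiting step of heme synthesis, and slc4a1a, the band 3 anion exchanger that anchors the red cell skeleton to the membrane.

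These 10 symbols were looked up, ignoring case, among the 32520 Ensembl genes of the series, and 6 of them matched 1 gene each (hbae1.1, hbae3, hbae5, hbbe3, hbaa1 and alas2). The symbols hbbe1.1, hbbe2 and hbba1 could not be told apart among 7 genes that the gene name table lists under the human symbol HBE1, and slc4a1a could not be told apart from its copy among 2 genes listed as SLC4A1. The human symbol HBE1 says nothing of whether such a gene is embryonic or adult in zebrafish, so these genes are named by identifier and the contrast of adult with embryonic globins was possible only for the alpha chain. With the other annotated red cell globins, 19 genes are described: 8 alpha globins, 8 beta globins, alas2 and the 2 SLC4A1 genes.

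RNA was sequenced from whole zebrafish larvae at 120 hpf, raised at 28.5 °C, with 50 larvae of a clutch pooled for each library. Of the 10 libraries, 5 came from homozygous aldh2.1-/- larvae and 5 from aldh2.1+/+ larvae. The mutants carry a frameshift deletion, made with CRISPR/Cas9, in exon 3 of the mitochondrial aldehyde dehydrogenase gene aldh2.1. The labels number the libraries of both genotypes 1, 2, 3, 5 and 6 and do not say whether equal numbers stand for related clutches. Both genotypes carry Tg(fli1:EGFP), a green fluorescent reporter driven by an endothelial promoter. The mutants represent 1 allele, and every library mixes blood with all other tissues of the larva.

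The libraries held between 19792930 and 20703518 estimated reads, of which the 10 most abundant genes took 13.1% to 17.6%, and 5 libraries of a genotype differed among themselves by more than counting noise. The gene listed under the human symbol ALDH2 was taken as the targeted gene. It was at 91.3 ± 35.8 normalized counts in aldh2.1-/- (range 55.9 to 150) and 220 ± 19.7 in aldh2.1+/+ larvae (range 208 to 254, SD, n = 5 each). By this gene no library went against its label. All levels below are normalized counts (reads scaled by library size and the TMM factor of edgeR) unless TPM is named, which also divides by transcript length and is used to compare genes with each other. Differences are log2 fold changes of aldh2.1-/- over aldh2.1+/+ from edgeR's quasi-likelihood test with Benjamini-Hochberg adjustment over the 21532 genes tested. Their standard error (SE) was derived from the fit, as the absolute log2 fold change divided by the square root of the F statistic. The exact permutation tests beside these differences are two-sided, and 5 against 5 libraries cannot give a p below 0.00794. For ALDH2 the log2 fold change was -1.27 (SE 0.21, edgeR adjusted p = 0.134). The gene listed as aldh2.2 was lower by more, at 37.68 against 291.4 counts (log2 fold change -2.946, SE 0.131, edgeR adjusted p = 2.08e-07).

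Among the globins at 120 hpf, the embryonic alpha genes and several HBE1 genes carried nearly all reads, and adult-type alpha globin was close to absent. By mean TPM over all libraries, hbae3 ranked 301st of 32520 genes with 326 TPM, ahead of hbae1.2 with 307 TPM and HBE1 ENSDARG00000113599 with 296 TPM. These 3 levels lay closer together than the spread of hbae3 in mutant libraries (388 ± 126 TPM). Next came hbae1.3 at 151, HBE1 ENSDARG00000045143 at 114, HBE1 ENSDARG00000115405 at 61.4, HBE1 ENSDARG00000087390 at 50.3 and hbae1.1 at 47.7 TPM. Far lower per length were alas2, the SLC4A1 genes and the embryonic alpha globin hbae5. Their levels were 4.26 TPM for alas2 (rank 12287), 3.2 for hbae5, 2.88 for SLC4A1 ENSDARG00000012881 (rank 14582) and 0.475 TPM for SLC4A1 ENSDARG00000024560. The first 3 of these differed from each other by less than the spread of alas2 and hbae5 in mutant libraries (SD 2.3 and 2.17 TPM).

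Of the 19 genes, 7 had too few reads for the expression filter and were not tested: hbaa1, hbaa2, hbae4, hbbe3 and 3 HBE1 genes (ENSDARG00000069734, ENSDARG00000089087 and ENSDARG00000097238). Of the 12 that were tested, 9 had higher and 3 had lower levels in the mutants, beside 11218 higher of all 21532 genes tested. The median log2 fold change of the 12 was 0.34 beside 0.01 over all genes tested. None passed the adjusted threshold of 0.05 with edgeR (0 of 12; 0 with DESeq2), which 0.00929% of all tested genes passed. At an unadjusted p under 0.05 there were 4, all higher in the mutants (hbae3, hbae5, alas2 and HBE1 ENSDARG00000113599), where 5.04% of all genes reached that level in either direction and 2.83% were higher. Since whole larvae were sequenced, a different number of red cells and a different amount of RNA per red cell cannot be told apart in any of these values.

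The mutant library of clutch 5 was often the lowest, and the outcome of the genotype comparison changed without it. It was the lowest of the 10 libraries for 9 of the 12 tested genes, while it was the lowest for 13.9% of all genes. Without it, all 12 genes were higher in the mutants, beside 11257 higher of all 21739 genes tested. The 12 had a median log2 fold change of 0.49, and 7 had an unadjusted p under 0.05 (all higher, against 6.63% of all genes). Of the 12, 1, hbae3, passed the adjusted threshold, against 0.221% of all genes. Mutant library 5 stood out by its low values in these same genes, so leaving it out raises most of these fold changes by construction. The shares over all genes do not correct for that choice, and the values without it are description only. In 3 of the 12 genes (hbae3, hbae5 and HBE1 ENSDARG00000045143) the 4 remaining mutant libraries all lay above the 5 wild-type libraries, which 1.73% of all genes showed. Of these genes, hbae3 alone met Dixon's criterion for a library apart from the other 4 mutant libraries (ratio 0.917, critical value 0.71).

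**Figure D1:**
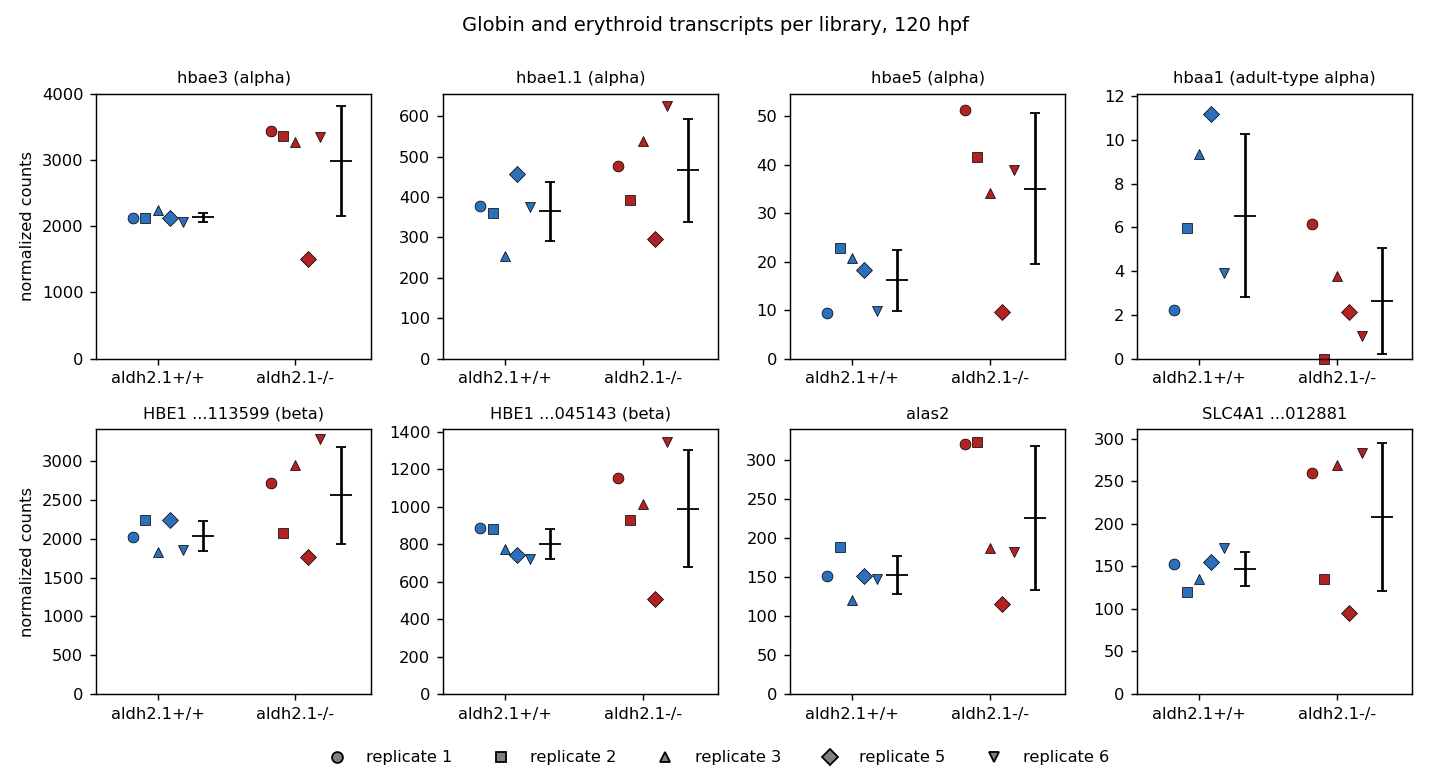
Normalized counts (y axis, each panel with its own scale from 0) of 8 globin and erythroid genes in the 5 aldh2.1+/+ (blue) and 5 aldh2.1-/- (red) libraries at 120 hpf, with a marker shape for each clutch number and the mean ± SD to the right of each group. The mutant library of clutch 5 (diamond) is the lowest mutant library in 7 of the panels, and in hbae3 it lies at 1501 while the other mutant libraries are between 3274 and 3435; hbaa1 stays under 12 counts throughout.

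The embryonic alpha globin hbae3 (ENSDARG00000079305) had the smallest spread in wild type, relative to its mean, of the 12 tested genes. Its normalized counts in the mutant libraries 1, 2, 3, 5 and 6 were 3435, 3365, 3274, 1501 and 3348, and in the wild-type libraries 2129, 2124, 2250, 2124 and 2069. Thus 4 mutant libraries lay above every wild-type library and within a narrow band, and library 5 lay below every wild-type library. Over all libraries the means were 2985 ± 831 and 2140 ± 66.7 (SD, n = 5), and the log2 fold change was 0.48 (SE 0.18, unadjusted p = 0.0222, edgeR adjusted p = 0.921, exact permutation p = 0.0476). Without mutant library 5 the mutant mean was 3356 ± 66.3 and the log2 fold change 0.65 (SE 0.06, edgeR adjusted p = 0.000584, exact permutation p = 0.00794, the smallest that 4 against 5 libraries can give). The p values without library 5 leave out the library that was lowest for hbae3 itself, so they are description only. Over all alternatives the adjusted p of hbae3 ranged from 0.000584 to 1. Its reads came out whole, within 0.01, in all 10 libraries, so no division of reads between similar genes is visible in them.

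The embryonic alpha globin hbae5 (ENSDARG00000045142) belongs to the smaller globin cluster, in which the RefSeq annotation of the GRCz12tu assembly orders hbae4, hbbe3, hbbe2 and hbae5. It was weakly detected, at 51.2, 41.6, 34.1, 9.61 and 38.8 normalized counts in mutant libraries 1, 2, 3, 5 and 6 and at 9.3, 22.8, 20.8, 18.3 and 9.76 in the wild-type libraries. The 4 mutant libraries other than 5 were all above the wild-type range, and library 5 sat near its lower end. The means were 35.1 ± 15.5 and 16.2 ± 6.28 counts, with a log2 fold change of 1.12 (SE 0.39, unadjusted p = 0.0137, edgeR adjusted p = 0.921, exact permutation p = 0.103). Without mutant library 5 it was 1.35 (SE 0.29, edgeR adjusted p = 0.0972). In the same cluster, hbae4 and hbbe3 were at or near the limit of detection. The embryonic alpha globin hbae4 had 2.08 to 14.6 normalized counts with overlapping genotypes. The embryonic beta globin hbbe3 (ENSDARG00000038147) had at most 2 reads, in 3 of the 10 libraries. The level of hbbe2, which lies beside hbae5, is not known, as hbbe2 was not matched to 1 gene.

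The larger cluster holds hbaa2, hbba2, hbaa1, hbba1, hbbe1.1, hbae1.1, hbbe1.2, hbae1.2, hbbe1.3, hbae1.3 and hbae3 in that order in GRCz12tu. Its hbae1 genes are 3 embryonic alpha copies, and none of their counts was whole in any library, so their reads were divided among the copies by an estimate. For hbae1.1 (ENSDARG00000089475) the mutant libraries held 477, 392, 539, 297 and 625 normalized counts and the wild-type libraries 378, 360, 253, 456 and 374. The genotypes overlapped, with mutant library 5 inside the wild-type range and 3 mutant libraries above it. The log2 fold change of hbae1.1 was 0.35 (SE 0.19, unadjusted p = 0.0913, edgeR adjusted p = 0.921), and without mutant library 5 it was 0.48 (SE 0.16, adjusted p = 0.289).

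The division among the 3 copies differed between clutches more than between genotypes. The copy hbae1.1 took 8.81% to 15.1% of hbae1 reads in every library. The copy hbae1.3 took 40.3%, 36.5%, 18.3%, 0.558% and 32% in mutant libraries 1, 2, 3, 5 and 6, and 37.3%, 37%, 42.2%, 3.87% and 40.9% in the wild-type libraries. It was thus almost missing in the libraries numbered 5 of both genotypes, where hbae1.2 took 84.4% and 84.5%, while hbae1.2 took 47.4% to 71.2% in the other 8. In normalized counts, hbae1.3 had 11 and 151 in the mutant and wild-type libraries numbered 5, and between 933 and 1922 in the others. The log2 fold changes of hbae1.2 (0.38, SE 0.26) and hbae1.3 (0.21, SE 0.78) had correspondingly wide errors. Summed over the 3 copies, the mutant libraries held 4765, 4082, 5108, 1968 and 4493 normalized counts and the wild-type libraries 3365, 2910, 2867, 3917 and 3205. The sums overlapped, with mutant library 5 the lowest of all and wild-type library 5 the highest of its genotype, and the log2 fold change of the sum was 0.33 (SE 0.21, unadjusted p = 0.142, edgeR adjusted p = 0.92). The sum does not depend on how reads were divided among the copies, whereas the levels of single copies do in every library. What lies behind the low hbae1.3 share in the libraries numbered 5 was not tested.

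**Figure D2:**
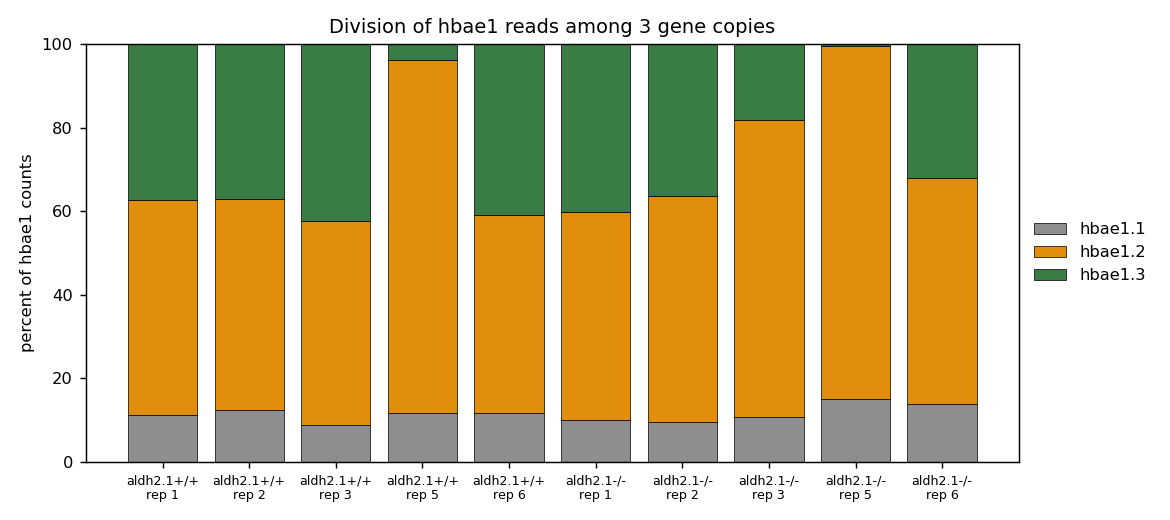
Share of the reads of the embryonic alpha globin hbae1 (y axis, percent of the estimated counts of the 3 copies) given to hbae1.1, hbae1.2 and hbae1.3 in each of the 10 libraries, wild type on the left and mutant on the right. The hbae1.3 share falls to 3.87% in wild-type clutch 5 and 0.558% in mutant clutch 5, beside 18.3% to 42.2% in the other libraries.

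The adult-type alpha globins were barely detected. The gene hbaa1 (ENSDARG00000097011) had 6.17, 0, 3.79, 2.13 and 1.05 normalized counts in mutant libraries 1, 2, 3, 5 and 6 and 2.24, 5.96, 9.34, 11.2 and 3.9 in the wild-type libraries, means of 2.63 ± 2.43 and 6.52 ± 3.7. Wild-type libraries tended to the higher values, but the genotypes overlapped and the gene was below the filter for testing. As a share of the TPM of the 4 matched alpha globins, hbaa1 made up 0.0704% ± 0.0572 in mutants (0 to 0.137%) and 0.227% ± 0.125 in wild type (0.0787% to 0.378%). The denominator of this share holds hbae3, which was higher in 4 of the 5 mutant libraries, and leaves out the abundant copies hbae1.2 and hbae1.3. Over the TPM of all 8 alpha globins, hbaa1 and hbaa2 together made up 0.0368% ± 0.0335 in mutants and 0.0991% ± 0.0526 in wild type. At this depth the shares were imprecise. Among the 4 matched alpha globins, the highest came from 11 of 2574 reads (0.427% of reads, exact 95% binomial interval 0.214% to 0.763%). The mutant library with 0 of 3835 reads allows a share of up to 0.0782% by a limit of 3 reads and up to 0.0961% by the exact interval. These limits all cover counting error only. The other adult-type alpha globin of the cluster, hbaa2, had 2 reads in 1 mutant library and none elsewhere.

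Among the 8 beta globins, 4 HBE1 genes carried the reads. The most abundant, ENSDARG00000113599, had 2727, 2073, 2951, 1761 and 3290 normalized counts in mutant libraries 1, 2, 3, 5 and 6 and 2022, 2243, 1835, 2238 and 1863 in wild type. Mutant clutches 1, 3 and 6 were above the wild-type range, clutch 2 within it and clutch 5 below it. Its means were 2560 ± 630 and 2040 ± 196 and its log2 fold change 0.33 (SE 0.15, unadjusted p = 0.0493, edgeR adjusted p = 0.921), rising to 0.44 without mutant library 5 (SE 0.12, adjusted p = 0.193). The counts of ENSDARG00000113599 were not whole in any library.

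The second HBE1 gene, ENSDARG00000045143, had whole counts in all 10 libraries, as hbae3 had. Its values were 1152, 929, 1018, 508 and 1347 in the mutant libraries and 885, 884, 775, 742 and 719 in the wild-type libraries. As for hbae3, 4 mutant libraries lay above every wild-type library and library 5 below every one, although the gap between 929 and 885 was small. The means were 991 ± 312 and 801 ± 78.4, with a log2 fold change of 0.31 (SE 0.20, unadjusted p = 0.151, edgeR adjusted p = 0.921), and 0.47 without mutant library 5 (SE 0.11, adjusted p = 0.12).

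The other 2 abundant HBE1 genes overlapped between genotypes. ENSDARG00000087390 was at 374 ± 149 in mutants and 409 ± 69.1 in wild type (log2 fold change -0.13, SE 0.26, and 0.07 without mutant library 5), and ENSDARG00000115405 at 471 ± 112 and 489 ± 25.7 (-0.06, SE 0.14, and 0.04 without mutant library 5). For both, mutant library 5 was the lowest of the 10 libraries, with 151 and 339 counts. The remaining 3 HBE1 genes held between 0 and 11.3 normalized counts. Summed over all HBE1 genes, the log2 fold change was 0.23 (SE 0.15, unadjusted p = 0.156, edgeR adjusted p = 0.92).

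**Figure D3:**
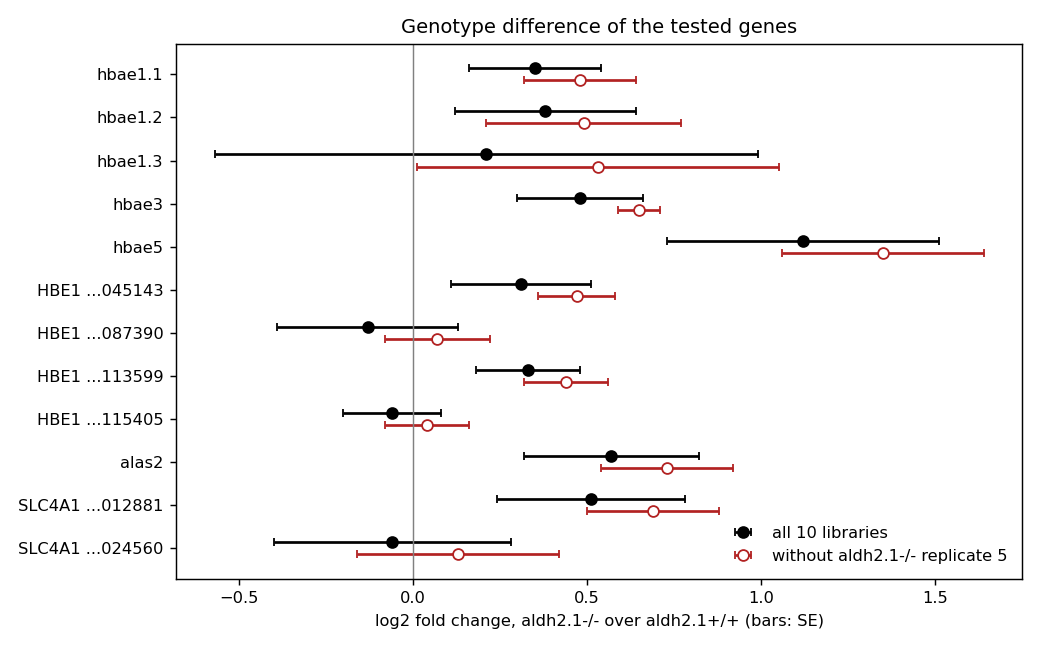
Log2 fold change of aldh2.1-/- over aldh2.1+/+ (x axis, bars ± SE of the edgeR fit) for the 12 tested globin and erythroid genes (y axis), with all 10 libraries (filled black) and without the mutant library of clutch 5 (open red). With all libraries 9 genes are above 0, and without that library all 12 are, hbae3 with the narrowest bar (0.65, SE 0.06) and hbae5 with the largest value (1.35, SE 0.29). The library left out stood out by its low values in these same genes.

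In sum over the 16 red cell globins, the libraries held 1892, 1440, 1909, 730 and 1767 TPM in mutant clutches 1, 2, 3, 5 and 6, and 1175, 1225, 990, 1245 and 1196 TPM in the wild-type clutches. These sums were 0.0292% to 0.0687% of the reads of a library. Mutant clutch 5 was again below and the other 4 mutant clutches above every wild-type clutch, with means of 1548 ± 494 and 1166 ± 102 TPM (1752 ± 217 in mutants without clutch 5). Both chains were low in the same library: the alpha genes summed to 412 TPM and the beta genes to 318 TPM in mutant library 5, beside 599 to 1227 and 390 to 738 TPM in the others.

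The ratio of alpha to beta globin TPM was above 1 in every library. It was 1.83, 2.01, 1.8, 1.3 and 1.39 in mutant and 1.48, 1.32, 1.54, 1.65 and 1.52 in wild-type libraries, with means of 1.67 ± 0.305 and 1.5 ± 0.12. The genotypes overlapped, mutant libraries 1, 2 and 3 being the highest and 5 the lowest of all. The make-up of each chain was steadier than its total: hbae3 was 33.2% to 43% of alpha globin TPM and the hbae1 copies together 56.5% to 66.4%, while ENSDARG00000113599 was 51.8% to 63.7% and ENSDARG00000045143 18.1% to 24.3% of beta globin TPM. Mutant library 5 was thus low in globin RNA of both chains rather than of a single gene.

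**Figure D4:**
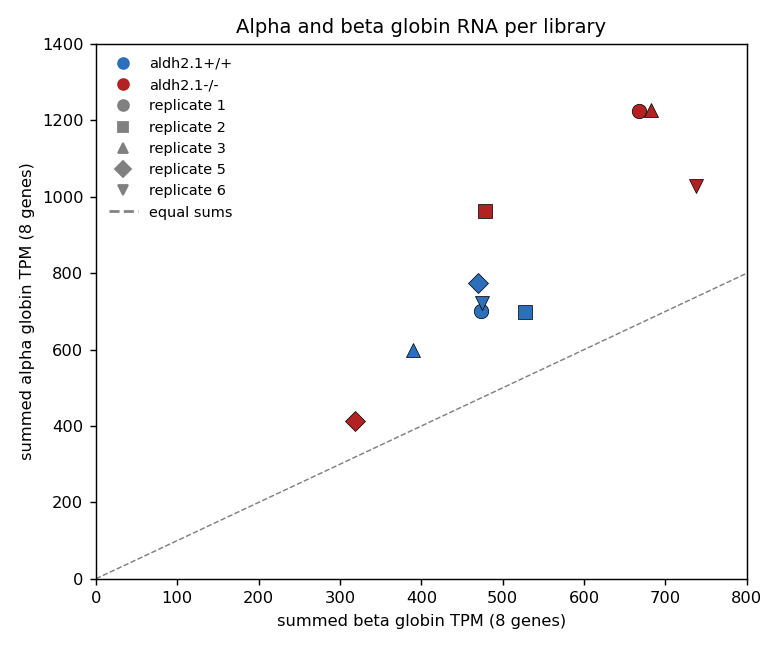
Summed TPM of the 8 alpha globin genes (y axis) against that of the 8 beta globin genes (x axis), 1 point per library, blue for aldh2.1+/+ and red for aldh2.1-/-, with a marker shape for each clutch number and a dashed line of equal sums. All 10 points lie above the line; mutant clutch 5 is lowest on both axes (318 beta and 412 alpha TPM), and the other 4 mutant clutches have 962 to 1227 alpha TPM, above the 599 to 775 TPM of wild type.

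The erythroid heme synthesis gene alas2 (ENSDARG00000038643) followed another order of libraries. It had 321, 323, 187, 115 and 182 normalized counts in mutant libraries 1, 2, 3, 5 and 6 and 152, 189, 121, 152 and 147 in wild type. Only mutant libraries 1 and 2 exceeded the wild-type range, and mutant library 5 was below it. The means were 226 ± 92.3 and 152 ± 24, and the log2 fold change was 0.57 (SE 0.25, unadjusted p = 0.0426, edgeR adjusted p = 0.921, exact permutation p = 0.198), and 0.73 without mutant library 5 (SE 0.19, adjusted p = 0.185).

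Band 3 RNA, here the more abundant SLC4A1 gene ENSDARG00000012881, had 260, 135, 269, 95 and 283 counts in mutant libraries 1, 2, 3, 5 and 6 and 153, 120, 135, 155 and 172 in wild type. Mutant clutches 1, 3 and 6 were above the wild-type range, clutch 2 within it and clutch 5 below it, the same arrangement as in HBE1 ENSDARG00000113599. The means of 208 ± 86.9 and 147 ± 19.9 gave a log2 fold change of 0.51 (SE 0.27, unadjusted p = 0.0834, edgeR adjusted p = 0.921), and 0.69 without mutant library 5 (SE 0.19, adjusted p = 0.203). The other gene listed as SLC4A1, ENSDARG00000024560, was at 24 ± 9 and 25.3 ± 10.4 counts (log2 fold change -0.06, SE 0.34).

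Erythroid function was followed beyond these genes in 5 lists. Of 58 tested list genes, 41 had higher and 17 had lower levels in the mutants, beside 11218 higher of all 21532 genes tested. The median log2 fold change of the list genes was 0.09 beside 0.01 over all genes. None passed the adjusted threshold with edgeR or DESeq2, and 3 of the 58 had an unadjusted p under 0.05, all higher, where 2.83% of all genes were higher at that level. Without mutant library 5 the median of 59 tested genes was 0.16, and 8 were higher and 1 lower at an unadjusted p under 0.05, where 6.63% of all genes were higher. Of the 59, 0 passed the adjusted threshold.

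In the list of heme synthesis, 6 genes were higher and 2 lower (median 0.09). The lowest p values belonged to CPOX, the coproporphyrinogen oxidase, at 149 ± 41.5 against 116 ± 4.2 counts (log2 fold change 0.37, SE 0.17), and ALAD, which forms the pyrrole porphobilinogen, at 175 ± 37.5 against 142 ± 14.3 (0.30, SE 0.14). CPOX had 201 and 185 counts in mutant libraries 1 and 2 and 104 to 134 in the other 3, beside 109 to 120 in wild type. Its high libraries were those of alas2. The housekeeping paralog ALAS1, named after its values were seen, had 7175 and 7638 counts in mutant clutches 1 and 2 and 5552 and 5037 in wild-type clutches 1 and 2, and between 3091 and 3433 in the other 6 libraries (log2 fold change 0.27, SE 0.30), so that its high libraries were the clutches numbered 1 and 2 in both genotypes.

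Iron and heme transport had 11 genes higher and 5 lower (median 0.14). The transferrin receptor gene tfr1b had 1027, 829, 279, 224 and 298 counts in mutant libraries 1, 2, 3, 5 and 6 and 244, 317, 333, 236 and 271 in wild type, so that mutant libraries 1 and 2 alone carried its log2 fold change of 0.93 (SE 0.41, unadjusted p = 0.0449, edgeR adjusted p = 0.921). Its paralog tfr1a, the receptor through which developing zebrafish red cells take up iron, also named after its values were seen, had 235, 95.1, 73.9, 19.2 and 16.8 counts in the mutant libraries and 27.8 to 43.9 in wild type (1.25, SE 0.60). It thus exceeded the wild-type range in mutant libraries 1, 2 and 3 and was below it in 5 and 6. GLRX5, a mitochondrial glutaredoxin needed for iron-sulfur clusters, was at 149 ± 11.3 against 127 ± 14.2 counts (0.23, SE 0.11).

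**Figure D5:**
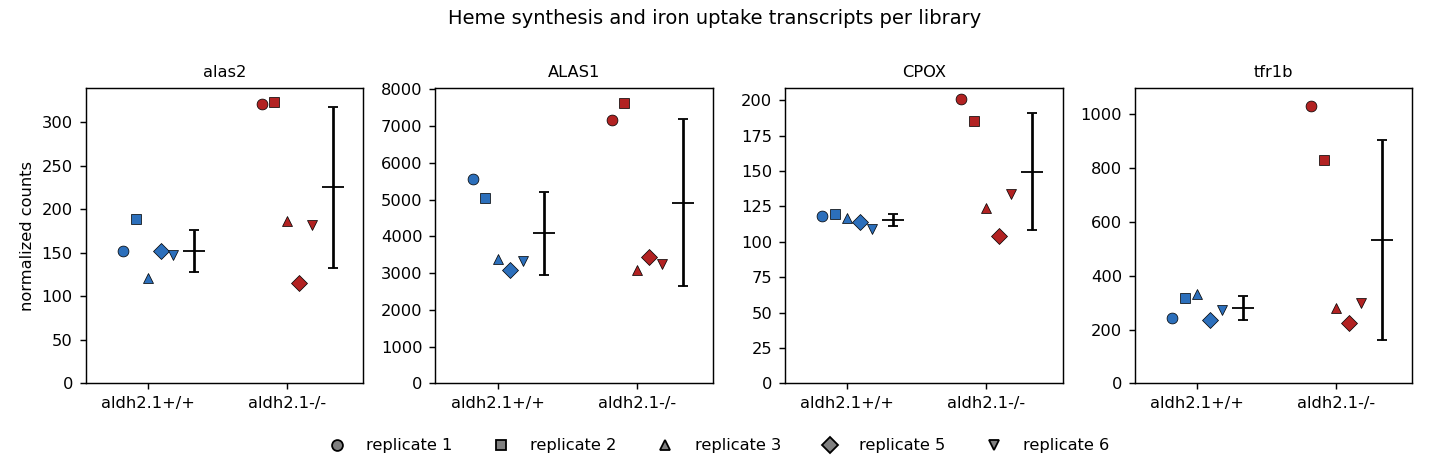
Normalized counts (y axis, each panel from 0) of alas2, ALAS1, CPOX and tfr1b in the 5 aldh2.1+/+ (blue) and 5 aldh2.1-/- (red) libraries, with a marker shape for each clutch number and the mean ± SD beside each group. Mutant clutches 1 and 2 (circle and square) are the highest in all 4 panels, with 1027 and 829 counts for tfr1b where the other libraries have 224 to 333, and wild-type clutches 1 and 2 are also high for ALAS1.

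Of the red cell membrane and enzyme genes, 10 were higher and 3 lower (median 0.11). SPTB, the erythroid beta spectrin of the membrane skeleton, had 578, 269, 391, 188 and 220 counts in mutant libraries 1, 2, 3, 5 and 6 and 167 to 234 in wild type, with a log2 fold change of 0.63 (SE 0.27, unadjusted p = 0.0366, edgeR adjusted p = 0.921). It was above the wild-type range in mutant libraries 1, 2 and 3 and within it in 5 and 6. AQP1, a water channel, was at 1066 ± 52.3 against 973 ± 47.8 counts (0.13, SE 0.06).

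Of the erythroid regulators, 12 were higher and 5 lower (median 0.06). KLF3 was at 360 ± 95 against 288 ± 39.1 counts (0.32, SE 0.16) and SOX6, which in mammals represses embryonic globin genes, at 1339 ± 148 against 1232 ± 35.7 (0.12, SE 0.07). Named after their values were seen, the erythroid transcription factor genes gata1a (log2 fold change 0.16, SE 0.21) and klf1 (0.02, SE 0.33) differed by less than the SE of their fits. Among globins outside red cells, myoglobin (mb) was at 2206 ± 231 against 1902 ± 445 (0.21, SE 0.14) and globin X (xgb) at 22.3 ± 6.65 against 18.6 ± 3.4 (0.26, SE 0.26), with 2 of the 4 tested genes higher and 2 lower.

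Markers of other cell types were summed per library beside the globins, and what part their differences have in the globin values was not tested. In mutant library 5 the summed markers were the lowest of the 5 mutant libraries for thrombocytes (1465, mutants up to 2060, wild type 1325 to 1709), neutrophils (206, mutants up to 369, wild type 220 to 287), macrophages (188, mutants up to 354, wild type 191 to 245) and stem and progenitor cells (200, mutants up to 281, wild type 202 to 237). They were also the lowest for heart (1079, mutants up to 1677, wild type 1177 to 1475) and skeletal muscle (170609, mutants up to 249173, wild type 183065 to 252610). They were not the lowest for endothelium (2444, mutants 2222 to 3298, wild type 2147 to 2332) or liver (16846, mutants 16294 to 28672, wild type 15373 to 27967). The thrombocyte sum came mostly from the THBS1 genes, with 1041 and 264 counts in mutant library 5. For itga2b, mpl, gp9 and GP1BB, the other thrombocyte genes, mutant library 5 was not the lowest mutant library. It was the lowest mutant library for lyz and npsn, but the highest of all 10 libraries for the neutrophil gene MMP9 (42.7 counts). It was not the lowest for RUNX1 or gata2b, and among heart genes only for MYH6 ENSDARG00000079564 and TNNT2 ENSDARG00000100694. The stem and progenitor sum came mostly from MYB (157 counts in mutant library 5), which is also in the list of erythroid regulators. Means were under 10 counts for 3 of 6 thrombocyte, 6 of 14 macrophage and 1 of 4 stem and progenitor genes. No marker of these lists was at 0 in all libraries. In the comparison of genotypes their median log2 fold changes were 0.11 for thrombocytes, -0.02 for neutrophils, 0.46 for macrophages, 0.14 for stem and progenitor cells, 0.18 for endothelium, -0.08 for heart, -0.13 for liver and 0.15 for skeletal muscle. At an unadjusted p under 0.05, 1 of 4 endothelial and 1 of 6 muscle markers were higher and 1 of 5 liver markers lower, with 0 in the other lists, where 5.04% of all genes reached that level in either direction. None passed the adjusted threshold with edgeR and all 10 libraries. With DESeq2 and all 10 libraries, 1 of the 6 muscle markers passed it, and 0 in the other cell type lists. The share over all genes with DESeq2 was not counted. Without mutant library 5 the muscle gene TNNT3 (ENSDARG00000030270) passed the adjusted threshold with edgeR (log2 fold change 0.57, SE 0.09, edgeR adjusted p = 0.0328), as 0.221% of all genes did. Single markers in these lists were also below their wild-type range in mutant library 5, among them the muscle myosin myhz2, chosen after its values were seen, with 15124 counts where wild type had 21156 to 25634. For myhz2, mutant library 6 was lower still, at 13530 counts, and mutant libraries 1, 2 and 3 had 44383, 23153 and 35047.

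Over the 10 libraries, the genes whose levels were most like those of hbae3 among 16911 genes compared were si:ch211-199i15.5 (Pearson r = 0.986), TNNI2, a fast skeletal muscle troponin I (0.966), and si:ch211-156j16.1 (0.965). TNNI2 had 10889 counts in mutant library 5 and a mean of 21913 in the other 4 mutant libraries, beside 15886 ± 991 in wild type. For SLC4A1 ENSDARG00000012881 they were ZNF512B (0.966), zbtb25 (0.96) and ENSDARG00000098424 (0.935). The other globin and erythroid genes had lower r with hbae3, from 0.892 for HBE1 ENSDARG00000045143, 0.795 for alas2, 0.783 for SLC4A1 ENSDARG00000012881, 0.77 for HBE1 ENSDARG00000113599, 0.696 for hbae1.3 and 0.691 for hbae1.1 down to 0.589 for HBE1 ENSDARG00000087390, 0.551 for hbae1.2 and 0.443 for HBE1 ENSDARG00000115405. These values describe 10 points that include the low mutant library 5. By rank correlation (Spearman rho), the 3 genes most like hbae3 had 0.903 to 0.927 with it. Of the globin and erythroid genes, rho with hbae3 was 0.879 for ENSDARG00000045143, 0.709 for hbae1.3 and 0.697 for alas2. It was 0.503 for ENSDARG00000012881, 0.37 for ENSDARG00000087390 and 0.018 for ENSDARG00000115405.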

How the data were processed

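RNA was sequenced on the BGISEQ-500 platform, and the submitters' processing notes name Trim Galore 0.6.4, kallisto 0.4.6 and the build GRCz11. The authors deposited expected counts (estimated reads per gene, not normalized) and TPM values (scaled for transcript length and to a common total). In a library, 57.1% to 58.6% of the values of the 32520 genes were exactly whole, with zeros included. Gene names came from a table that gave a symbol to 29201 of 32520 genes, and gene order from RefSeq (GRCz12tu), without coordinates.

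Expected counts were rounded and fitted with edgeR 4.0.16 (R 4.3.3) over all genes: TMM (factors 0.948 to 1.08), filterByExpr, robust quasi-likelihood, no block. Between libraries of 1 genotype, chi-square divided by its degrees of freedom was 7.52 to 78.5. Each library is 1 clutch, so p-values measure the spread between clutches. Exact permutation tests compared means of log2 normalized counts (pseudocount 0.5). They ran over the 252 assignments of 5 against 5 libraries, and without mutant library 5 over every assignment of 4 against 5. Alternatives were library size alone, DESeq2 1.42.0, other filters, limma 3.58.1 on log2 TPM (pseudocounts 1 and 0.1), a replicate block, globins left out of scaling, copies summed, and each library left out. The edgeR steps were tested on simulated data.

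The genes and lists were chosen with earlier results of these data known. Named were the 10 symbols, all annotated red cell globins, the 2 genes of lowest p and any past the threshold in each erythroid list, the 3 genes most like hbae3 and SLC4A1 (mean of at least 50 counts), and the targeted gene. Likeness was not computed for hbbe2 (not matched) and hbaa1 (too few reads). As 4 symbols were not matched, the adult share was set within alpha globins, sums and ratios used all 16 globins, and ENSDARG00000012881 stood for band 3. Promoter sequences were not used here. Plots used Python 3.11.15 and matplotlib 3.10.9.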

Additional observations from a re-analysis of the deposited data

Results flagged for a closer look

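Among 28 groups of 5 library values examined for a single library far from the rest (Dixon's ratio above 0.71, which chance gives in about 1 group of 20), 4 were found. In aldh2.1-/- larvae, hbae3 had a ratio of 0.917, with library 5 at 1501 normalized counts and the others from 3274. In aldh2.1+/+ larvae, library 5 stood apart for both similar copies of hbae1, with 3309 counts of hbae1.2 (ratio 0.828) and 151 counts of hbae1.3 (ratio 0.799), in opposite directions, while the sum of the hbae1 copies there was 3917 counts. The summed TPM of the 16 globins in aldh2.1+/+ larvae had a ratio of 0.724, from 990 TPM in library 3 beside 1175 to 1245 in the others.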

How the results depend on the processing

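No gene of the 12 tested passed the adjusted threshold under any alternative that kept all 10 libraries. Leaving out 1 library at a time gave 0 to 1, the 1 being hbae3 without mutant library 5, and leaving out both libraries numbered 5, an alternative chosen after seeing the data, gave 1 (hbae3, log2 fold change 0.65, adjusted p = 0.00608 by edgeR). The erythroid lists stayed at 0. Over all genes, most libraries of equal number did not deviate alike from their group means. Same-number correlations of deviations were -0.125 to 0.105, over 0.1 in 1 of 5 pairs, the libraries numbered 5. Several pairs of unlike number were higher than that pair, up to 0.167 for mutant library 1 with wild-type library 6. Mutant library 5 was also the 1 of 5 mutant libraries that correlated best with its own number (r = 0.105). Single genes did follow the number, as hbae1.3 was lowest in both libraries numbered 5 and ALAS1 highest in those numbered 1 and 2. Whether such libraries share parents or a batch was not tested. The replicate block gave 0 of 12 past the adjusted threshold and turned hbae1.3 to -0.14, and limma turned hbae1.3 to -0.39 (pseudocount 1) and -0.51 (pseudocount 0.1). With 1 library left out, log2 fold changes ranged from -0.06 to 0.53 for hbae1.3, -0.33 to 0.07 for ENSDARG00000087390, -0.18 to 0.04 for ENSDARG00000115405 and -0.19 to 0.17 for ENSDARG00000024560. Without both libraries numbered 5 the last 3 were 0.02, 0.06 and 0.01. Those of hbae3 (0.43 to 0.65), hbae5 (0.94 to 1.35), alas2 (0.41 to 0.73) and ENSDARG00000012881 (0.37 to 0.69) kept their sign, as did those of hbae1.2 (0.2 without mutant library 3 to 0.68 without wild-type library 5), ENSDARG00000045143 (0.17 without mutant library 6 to 0.47), hbae1.1 (0.23 without mutant library 6 to 0.48) and ENSDARG00000113599 (0.22 to 0.44). Without mutant library 1, SPTB was at 0.33, CPOX at 0.24 and tfr1b at 0.54. The cause of these changes was not tested. At these depths, hbaa1, hbaa2, hbae4, hbbe3 and 3 HBE1 genes were too low to compare.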
